A study of Mus musculus with 22 samples.

Results

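Diclofenac, a drug against pain and inflammation, blocks the cyclooxygenases, and in some patients it injures the liver. The mice studied were male, 8 weeks old and of the strain C57BL6, with no genetic change, and each treated mouse received diclofenac sodium at 30 mg/kg by intraperitoneal injection, whereas control mice received saline in matching amounts. The response to the single treatment was read from the whole-liver RNA of 3 diclofenac treated mice and 3 saline mice, killed a day after the injection (day 1), on 1 Affymetrix Mouse 430 2.0 array per liver. The other arrays of the series are from mice treated daily for 3 or 14 days. Arrays were taken by their labels, which puts 6 of 22 arrays into the comparison, and every gene that could be tested was included. The sample labels give 5 mice per group and the methods 6, whereas 3 arrays per group were analysed here for day 1. Values are MAS5 signals, which are read from probe brightness and set by the authors to a common level on each array. In the text the signals of a gene are given for livers 1, 2 and 3 of the diclofenac group and then for livers 1, 2 and 3 of the saline group, and differences are on the log2 scale, diclofenac minus saline. The number of a liver is used only as a name, since nothing states that mice of equal number in the 2 groups were paired.

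The liver answers injury and infection with the acute phase response. Kupffer cells, the macrophages that line its sinusoids, release interleukins, and hepatocytes then secrete large amounts of serum amyloid A, orosomucoid and other plasma proteins through their endoplasmic reticulum. In hepatocytes this programme works mainly through the transcription factors STAT3, NF-kB and C/EBP, and it is accompanied by lower expression of many genes of drug metabolism. Diclofenac itself is oxidised by cytochromes P450, joined to glucuronic acid by UDP-glucuronosyltransferases and carried into bile.

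All 6 livers had the signals of hepatocytes, with Alb, the gene for albumin, at 51537, 47052 and 43811 in diclofenac treated livers, against 48881, 51569 and 51151 in saline livers. The median signal of an array was 75.8 to 85.0 among all 6 arrays, and the log2 ratio of 3' to 5' Gapdh probe sets, which climbs when RNA is degraded, was −0.14 to −0.09 after diclofenac and −0.24 to −0.09 after saline. The hybridisation controls added to every sample had mean log2 signals of 11.67, 11.96 and 11.56 after diclofenac and 11.62, 11.47 and 11.58 after saline, so that diclofenac liver 2 was the highest of the 6. The part of these controls in the results was not tested.

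Of 12900 genes tested, 0 passed an adjusted p of 0.05 in limma (0.0%), and the smallest adjusted p, 0.145, was shared by Lcn2, Orm2, Serpina3n and Slc25a22. At an unadjusted p under 0.05 there were 1664 genes, 853 higher after diclofenac (6.61%) and 811 lower (6.29%). Of the 12900 genes, 644 differed at least 2-fold, 335 of them higher and 309 lower. Ratios of this size are reached more easily at low signals, where a small absolute change makes a large ratio. In what follows a gene is described by its 6 signals, and the groups are called separate when all 3 diclofenac livers lie on the same side of all 3 saline livers. For a single gene an exact permutation test of 3 against 3 livers cannot give a two-sided p below 0.1, which is the value that separate groups reach. Groups were separate for 1062 genes that were higher after diclofenac (8.23%) and for 1033 that were lower (8.01%). Of these, 640 and 590 also had an unadjusted p under 0.05. Shares of the gene groups below are to be read against these 2 percentages.

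**Figure D1:**
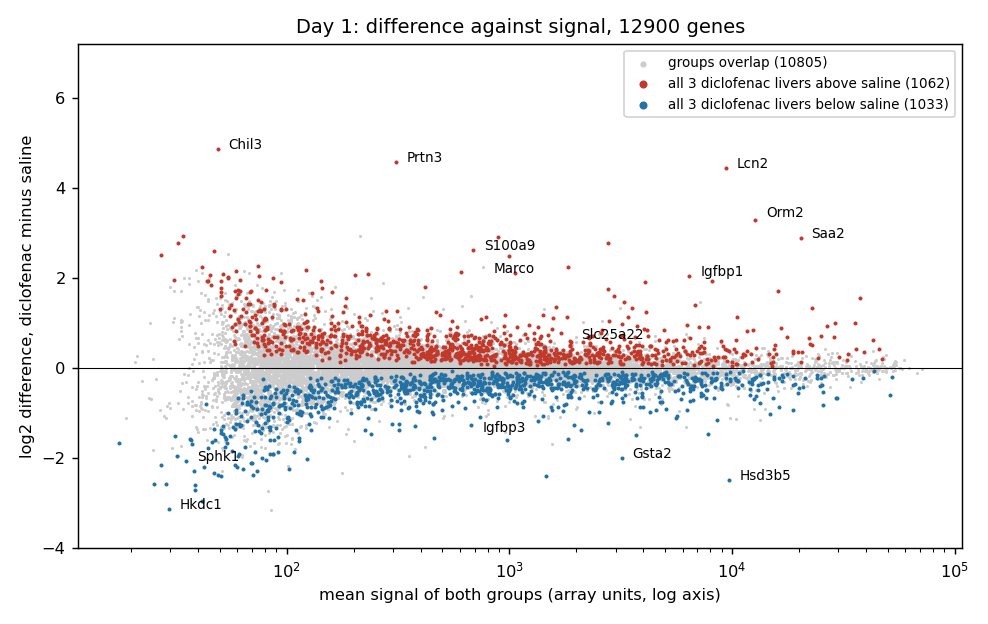
Each point is 1 of 12900 genes, with the mean array signal of both groups on a log axis and the log2 difference, diclofenac minus saline, on the vertical axis. Genes with separate groups are red when higher after diclofenac (1062) and blue when lower (1033), and the remaining genes, with overlapping livers, are grey. At high signals the points that stand out upwards are Lcn2, Orm2 and Saa2, while most of the large negative differences lie at signals under 100.

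The 3 treated livers did not respond to the same degree. Among the 6188 genes with a mean saline signal of at least 500, a level chosen after the values were seen, diclofenac liver 2 had 154 genes at least 2-fold above and 266 at least 2-fold below the saline mean and outside the saline range. Diclofenac liver 1 had 35 and 27 such genes, and diclofenac liver 3 had 14 and 19. Over all genes tested the counts above and below were 427 and 364 in diclofenac liver 1, 789 and 872 in diclofenac liver 2, and 271 and 402 in diclofenac liver 3. The first principal component, which held 36.5% of the variance, placed diclofenac liver 2 at 69.2, diclofenac livers 1 and 3 at −2.388 and −3.003, and the saline livers at −17.6, −28.0 and −18.1. Diclofenac livers 1 and 3 correlated on average less closely with the other 2 diclofenac livers (0.948 and 0.950) than with the saline livers (0.957 and 0.960), across genes, which are not independent. Both averages within the diclofenac group take in diclofenac liver 2, whose own means were 0.938 with its group and 0.927 with saline. They do not show how alike diclofenac livers 1 and 3 were to each other. Of the 644 genes that differed at least 2-fold, 363 (56.4%) had their most extreme diclofenac signal in diclofenac liver 2. Without that liver 584 genes reached 2-fold, and 383 of the 644 did so in the same direction. The median SD of log2 signal over genes was 0.261 among the diclofenac livers and 0.182 among the saline livers. For this reason the differences without diclofenac liver 2 are given beside those of all 3 livers. With that liver left out 2 livers stand against 3, and separation is then easier to reach, with 11.9% of genes higher and 11.4% lower.

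**Figure D2:**
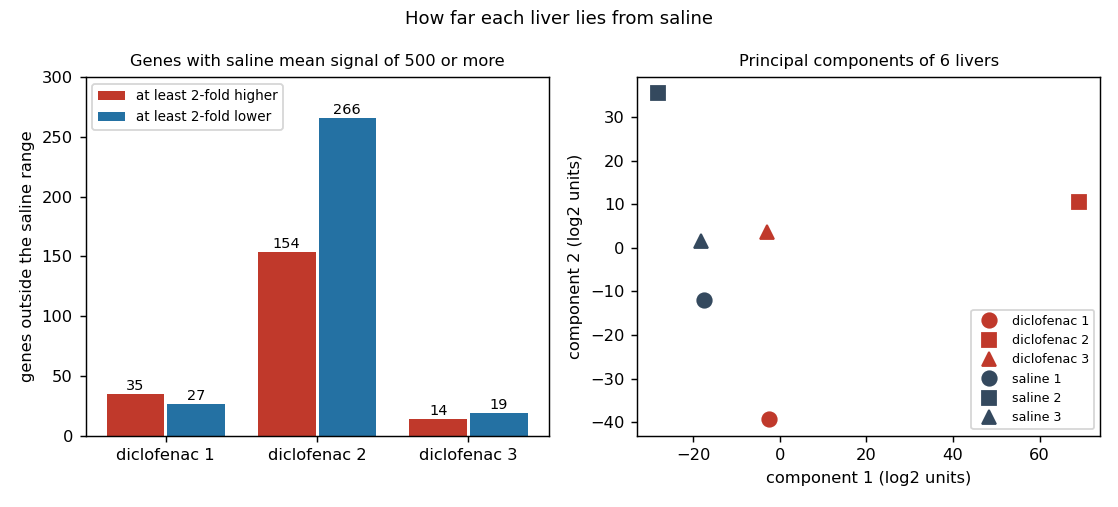
Left, the number of genes in each diclofenac liver that lay at least 2-fold above (red) or below (blue) the saline mean and outside the saline range, among 6188 genes with a mean saline signal of at least 500. Diclofenac liver 2 had 154 and 266, against 35 and 27 in diclofenac liver 1 and 14 and 19 in diclofenac liver 3. Right, principal components 1 and 2 of the log2 signals of the 6 livers, on which diclofenac liver 2 stands alone at 69.2 on component 1.

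Secreted acute phase proteins were among the largest separate differences of well measured genes. Lcn2 encodes lipocalin 2, which withholds iron from bacteria by binding their siderophores. Its signals were 18782, 67973 and 35352 in diclofenac treated livers, against 1244, 798 and 4473 in saline livers. Even the lowest treated liver was several times above the highest saline liver, and the log2 difference was 4.44 (standard error 0.68, adjusted p = 0.145). Orm2, which encodes an orosomucoid that carries drugs and lipids in plasma, had signals of 22977, 61396 and 26835 in diclofenac treated livers, against 3024, 1605 and 8506 in saline livers (log2 difference 3.28, adjusted p = 0.145). For both genes saline liver 3 was the highest of its group. Without saline liver 3 the log2 differences were 5.16 for Lcn2 and 3.93 for Orm2, each with an adjusted p of 0.0140 in limma. Saa2 (3.71), Saa1 (2.08) and Lrg1 (1.14) also passed. Leaving out the highest saline liver widens the differences of Lcn2 and Orm2 by construction, and with all livers no gene passed.

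The promoters of these 2 genes are shown because the genes are among the strongest well measured differences and the acute phase factors have known sequence preferences. That of the metallothionein gene Mt2, described further on, was added by name and not for the size of its difference. Each run holds 250 bases before and 50 bases after the gene start of RefSeq on GRCm38.p6, on the strand of the gene. Capitals mark matches on either strand to the letters searched, which were GGANNTTCC for NF-kB, TTCNNNGAA for STAT, TTNNGCAA for C/EBP, TGCNCNC for the metal response element and ACANNNTGT for the glucocorticoid receptor.
Lcn2 promoter (chr2:32387690-32387989, minus strand): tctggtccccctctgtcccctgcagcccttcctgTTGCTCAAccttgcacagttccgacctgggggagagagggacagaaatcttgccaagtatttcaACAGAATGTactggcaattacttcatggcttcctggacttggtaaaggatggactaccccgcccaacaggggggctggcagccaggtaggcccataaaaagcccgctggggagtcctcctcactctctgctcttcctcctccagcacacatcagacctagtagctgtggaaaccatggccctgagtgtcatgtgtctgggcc
Orm2 promoter (chr4:63362199-63362498, plus strand): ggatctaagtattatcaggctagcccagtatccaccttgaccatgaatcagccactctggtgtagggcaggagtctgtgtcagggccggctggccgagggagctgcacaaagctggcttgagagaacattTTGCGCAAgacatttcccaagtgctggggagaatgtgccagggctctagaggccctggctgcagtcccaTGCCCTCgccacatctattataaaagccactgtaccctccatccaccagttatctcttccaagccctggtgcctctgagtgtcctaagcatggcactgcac
Mt2 promoter (chr8:94172368-94172667, plus strand): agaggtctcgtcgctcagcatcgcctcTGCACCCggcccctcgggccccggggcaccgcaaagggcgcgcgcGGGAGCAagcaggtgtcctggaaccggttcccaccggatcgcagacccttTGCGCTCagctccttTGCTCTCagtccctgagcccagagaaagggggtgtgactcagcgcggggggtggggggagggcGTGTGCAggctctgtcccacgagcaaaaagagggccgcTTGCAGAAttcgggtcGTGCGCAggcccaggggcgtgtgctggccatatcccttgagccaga
The Lcn2 promoter held a C/EBP match that begins 216 bases before the start and a glucocorticoid receptor match 152 bases before it. The Orm2 promoter held a C/EBP match, the palindrome TTGCGCAA, 120 bases before the start and a metal response match 51 bases before it. Among 27025 promoters of the same length, 10.8% held the C/EBP letters, 6.9% those of the glucocorticoid receptor, 8.47% those of STAT, 4.24% those of NF-kB and 50.4% those of the metal response element. The Mt2 promoter had 6 metal response matches, a number that 0.207% of promoters reached or exceeded, and a C/EBP match 12 bases before the start. A match is a description of letters, and binding was not measured.

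Of 25 acute phase genes tested, 16 were separate and higher after diclofenac, 0 were separate and lower, and 0 passed the adjusted test. The median log2 difference of the list was 0.85, against 0.00 over all genes, and 0.62 without diclofenac liver 2. Serpina3n, a secreted protease inhibitor, had signals of 10423, 27887 and 11671 in diclofenac treated livers, against 3709.5, 3408 and 4778 in saline livers (log2 difference 1.94, standard error 0.32, adjusted p = 0.145). Saa2, a serum amyloid A of high-density lipoprotein, had 41541, 53736 and 40734 in diclofenac treated livers, against 6405, 1847 and 19235 in saline livers. Here the saline livers differed widely among themselves, with saline liver 3 the highest, and the treated livers lay close together. Apcs, which encodes serum amyloid P component, had 16142, 49900 and 24755 in diclofenac treated livers, against 10015, 5535 and 10138 in saline livers. Fgl1, a fibrinogen-like protein secreted by hepatocytes, had a log2 difference of 1.00, and Lbp, the plasma protein that binds lipopolysaccharide, had one of 0.85, both with separate groups. Prg4, which encodes the lubricating proteoglycan lubricin, had 4712, 12841 and 6537 in diclofenac treated livers, against 1818, 1342 and 3043 in saline livers, a difference of 1.91 (adjusted p = 0.201).

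**Figure D3:**
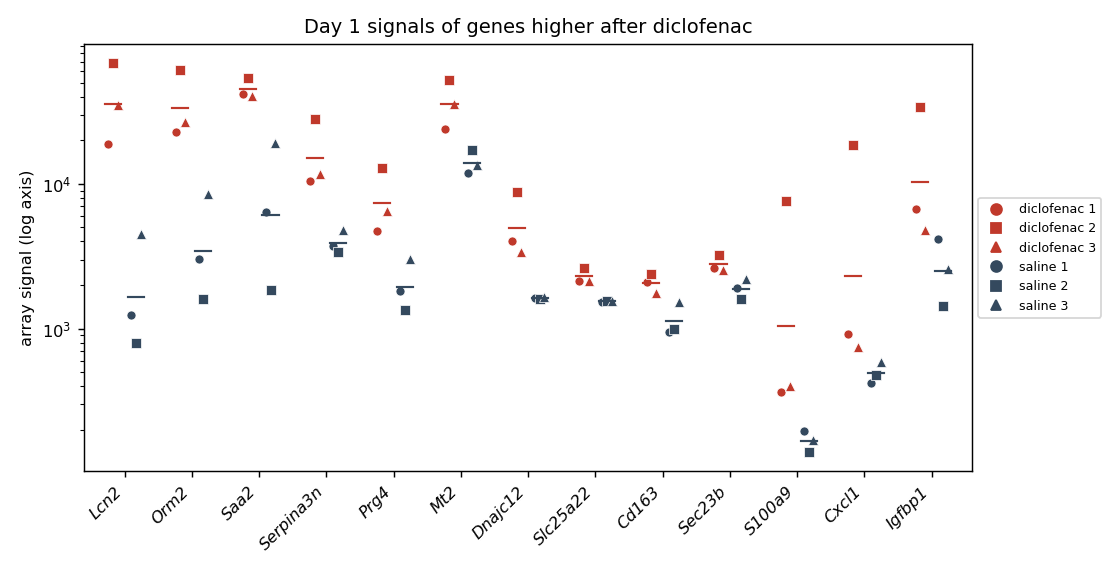
Array signals on a log axis of 13 genes that were higher after diclofenac, with separate groups, in each diclofenac liver (red, left) and each saline liver (dark, right) of day 1, where circles, squares and triangles are livers 1, 2 and 3 and bars are geometric means. Slc25a22 and Sec23b have tight groups, while the means of S100a9 and Cxcl1 are set mainly by diclofenac liver 2.

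Some of the smallest p-values came from genes outside the acute phase with smaller differences. Slc25a22 encodes the mitochondrial glutamate carrier. Its signals were 2147, 2629 and 2149 in diclofenac treated livers, against 1529.5, 1553 and 1548 in saline livers. The saline livers were nearly equal and every treated liver was clearly above them, with a log2 difference of 0.57 (standard error 0.10, adjusted p = 0.145). Dnajc12, a co-chaperone of the aromatic amino acid hydroxylases, had 4021, 8773 and 3399.8 in diclofenac treated livers, against 1636, 1591 and 1662 in saline livers (log2 difference 1.60, and 1.18 without diclofenac liver 2). Lrp1, an endocytic receptor for lipoprotein remnants and protease complexes, had 2948, 4035 and 3138 in diclofenac treated livers, against 1826, 1807 and 2256 in saline livers. Each of these genes kept a gap between the groups in every liver. Slc7a8, an amino acid transporter of the cell surface, had 298, 309 and 298 in diclofenac treated livers, against 134, 158 and 156 in saline livers, a log2 difference of 1.02 with or without diclofenac liver 2 (1.01). Psme1, a subunit of the proteasome activator that is known from antigen processing, had 6635, 5419 and 5593 in diclofenac treated livers, against 4299, 4003 and 4824 in saline livers.

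The route by which secreted proteins leave the cell was higher over many genes by small amounts. Of 29 genes tested for translocation into the endoplasmic reticulum and vesicle transport from it, 27 had a log2 difference above 0, 12 were separate and higher, 1 was separate and lower, and the median difference was 0.28. Sec61b is a subunit of the channel through which nascent proteins enter the endoplasmic reticulum. It had signals of 11098, 11699 and 9561 in diclofenac treated livers, against 8158, 6967 and 9053 in saline livers (log2 difference 0.42). Sec23b, of the coat of vesicles that leave the endoplasmic reticulum, had 2619, 3235 and 2557 in diclofenac treated livers, against 1897, 1592 and 2212 in saline livers. Cope, of the coat of vesicles that return to it, had 6195, 6962 and 6067 in diclofenac treated livers, against 4910.5, 4892 and 5425 in saline livers. The gene that was separate and lower was Sar1b, the small GTPase that starts coat assembly, with 23219, 21176 and 24372 in diclofenac treated livers, against 25072, 25536 and 25650 in saline livers. Median differences of the 29 genes were 0.19, 0.44 and 0.12 in diclofenac livers 1, 2 and 3, so that all 3 livers were above saline and the second most. Of 19 genes of the unfolded protein response and of protein folding, 18 were above 0, 5 were separate and higher and 0 separate and lower, with a median of 0.26. Dnajb9, a co-chaperone induced by unfolded proteins, had 6231, 14819 and 6296 in diclofenac treated livers, against 3662, 4578 and 4841 in saline livers. Edem1, which sends misfolded glycoproteins to degradation, had 5807, 7959 and 5042 in diclofenac treated livers, against 4472, 3619 and 4231 in saline livers. Hspa5, the chief chaperone of the endoplasmic reticulum, had a smaller difference of 0.35, and 0.16 without diclofenac liver 2. Without that liver the medians of the 2 lists were 0.13 and 0.16.

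Genes of Kupffer cells were higher in all 3 treated livers, and least so in diclofenac liver 3. In bulk tissue more or fewer cells of a type and more or less RNA per cell cannot be told apart. All 12 Kupffer cell genes tested had a difference above 0, 8 were separate and higher, and the median was 0.56. It was 0.74, 0.61 and 0.38 in diclofenac livers 1, 2 and 3. The median of these genes was 0.59 without diclofenac liver 2 and 0.39 without saline liver 2. Their summed signal was 38768 to 53777 in diclofenac treated livers and 22815 to 36166 in saline livers. Cd163, the scavenger receptor for haemoglobin and haptoglobin, had 2089, 2401 and 1769.7 in diclofenac treated livers, against 953, 996 and 1531 in saline livers (log2 difference 0.87). Cd5l, an inhibitor of apoptosis secreted by macrophages, had 12870, 11411 and 7609 in diclofenac treated livers, against 6187, 3624 and 7452 in saline livers. Vsig4, a complement receptor of resident macrophages, had 6385, 6507 and 6138 in diclofenac treated livers, against 4354, 3172 and 4996 in saline livers, and the treated livers were nearly equal. C1qb, a chain of complement C1q, had a difference of 0.73, and Timd4, a receptor for dying cells, of 0.80. Clec4f, a lectin receptor that is a defining marker of Kupffer cells, had 4053, 2959 and 3126 in diclofenac treated livers, against 2903, 2144 and 3528 in saline livers, with overlapping groups. Marco, a scavenger receptor for bacteria, had 1974, 2630.5 and 523 in diclofenac treated livers, against 326, 147 and 536 in saline livers, so that 2 treated livers lay far above saline and the other within its range. Beside them Fcgr4, an activating receptor for immunoglobulin G on myeloid cells, had 807, 1013 and 595 in diclofenac treated livers, against 366, 372 and 401 in saline livers (log2 difference 1.05, adjusted p = 0.201). Itgb2, the beta chain of leukocyte integrins, had 817, 834 and 556 in diclofenac treated livers, against 446, 326 and 431 in saline livers. Of 11 genes of monocytes and recruited macrophages 4 were separate and higher and 1 lower. Their median was 0.47, with 0.65, 0.55 and 0.07 in diclofenac livers 1, 2 and 3.

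Genes of neutrophils were much less even. Of 12 tested, 6 were separate and higher and 0 separate and lower, with a median log2 difference of 1.49, but the medians of the single livers were 1.25, 2.40 and 0.54. Without diclofenac liver 2 the median was 0.94, with 6 genes separate and higher and 1 lower, and it was 0.80 in all livers with the median signal added before log2. The summed signal of the list was 2541 to 27840 in diclofenac treated livers and 1032 to 1644 in saline livers. S100a9, a calcium-binding alarmin that makes up much of the neutrophil cytosol, had 363, 7632 and 402 in diclofenac treated livers, against 197, 140.4 and 169 in saline livers. Its partner S100a8 had 536, 11744 and 366 in diclofenac treated livers, against 275, 186 and 251 in saline livers. Both were about 2-fold or less above the highest saline liver in diclofenac livers 1 and 3, and more than an order of magnitude above it in diclofenac liver 2. Prtn3, the granule protease proteinase 3, had 278, 4277 and 866 in diclofenac treated livers, against 76.8, 14.3 and 67.9 in saline livers, and Chil3, a chitinase-like protein of myeloid cells, had 69, 872 and 79.7 in diclofenac treated livers, against 10.3, 2.13 and 8.82 in saline livers. These 2 had the largest differences of all genes, 4.59 and 4.87, or 3.54 and 3.68 without diclofenac liver 2, but their saline signals were under or near the array medians, where a small absolute change makes a large ratio. The Prtn3 promoter held none of the letters searched, and that of Chil3 held a STAT match 172 bases and a glucocorticoid receptor match 195 bases before the start. The granule genes Ngp (96.8, 1174 and 99.7 after diclofenac, against 151, 166 and 95.3 after saline) and Ltf (51.4, 319.8 and 29.7 after diclofenac, against 109, 78.7 and 113 after saline) were above saline in diclofenac liver 2 and not above its range in diclofenac livers 1 and 3. Fpr2, a receptor for formylated peptides and serum amyloid A, was more even, with 481, 456 and 293 after diclofenac, against 203, 146 and 247 after saline.

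In the NF-kB pathway 9 of 19 tested genes were separate and higher and 0 lower, with a median of 0.62. The median was 0.37 without diclofenac liver 2 and 0.30 with the median signal added before log2, and 9 genes were separate and higher without that liver. Nfkbie, an inhibitor of NF-kB that NF-kB itself induces, had 344, 357 and 303 in diclofenac treated livers, against 286, 187 and 187 in saline livers. Vcam1, an adhesion molecule of endothelium and a target of NF-kB, had 756, 766 and 669 in diclofenac treated livers, against 406, 431 and 509 in saline livers. Litaf, known for its induction by lipopolysaccharide, had 4094, 8393 and 3579.8 in diclofenac treated livers, against 2893, 2353 and 2606 in saline livers, and Nfkbiz, a nuclear cofactor of NF-kB, had 722, 3457 and 779 in diclofenac treated livers, against 639, 444 and 584 in saline livers. In the first 2 the treated livers were alike, and in the last 2 diclofenac liver 2 stood highest. Of 15 genes of interleukin-6 signalling 5 were separate and higher and 0 lower. Their median was 0.42, or 0.18 without diclofenac liver 2, and the single-liver medians were 0.07, 0.89 and 0.14. Stat3, the transcription factor of that pathway, had 3143, 5839 and 3268 in diclofenac treated livers, against 1705, 1679.8 and 2345 in saline livers (log2 difference 1.05), and the receptor chains Il6ra and Il6st had differences of 0.65 and 0.42. The feedback inhibitor Socs3 had 4802, 10616 and 1534 in diclofenac treated livers, against 1334, 1624 and 2282 in saline livers, with diclofenac liver 3 inside the saline range. Of 13 chemokine genes 4 were separate and higher. Cxcl13, an attractant of B cells, had 783, 836 and 523 in diclofenac treated livers, against 272, 215 and 437 in saline livers, similar in the treated livers, whereas Cxcl1, an attractant of neutrophils, had 911, 18542 and 741 in diclofenac treated livers, against 419.8, 478 and 592 in saline livers. Il18bp, the secreted inhibitor of interleukin-18, had 745, 1021 and 469 in diclofenac treated livers, against 351, 231 and 373 in saline livers, and Il1rn, the antagonist of the interleukin-1 receptor, had a difference of 1.14, while Il1rap, a chain of that receptor, was separate and lower (-0.46).

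Several receptors of cell death were modestly higher. Of 18 genes for death receptors, caspases and their effectors 6 were separate and higher and 0 lower, with a median of 0.18 and single-liver medians of 0.24, 0.28 and 0.14. The median was 0.11 without diclofenac liver 1. Fas, the death receptor that is abundant on hepatocytes, had 848, 1147 and 769.8 in diclofenac treated livers, against 572, 614 and 536 in saline livers (log2 difference 0.66, and 0.50 without diclofenac liver 2). Mlkl, which carries out necroptosis, had 354, 259.9 and 259 in diclofenac treated livers, against 177, 91.4 and 208 in saline livers. The TNF receptors Tnfrsf1a and Tnfrsf1b had differences of 0.48 and 0.45.

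Genes that handle metal ions were also among the separate ones. Mt2 encodes a metallothionein, a small protein that binds zinc and copper. It had signals of 24016, 52249 and 35452 in diclofenac treated livers, against 11838, 17153 and 13578 in saline livers (log2 difference 1.34, and 1.06 without diclofenac liver 2). Mt1, its neighbour in the genome, had 42030, 59628 and 49697 in diclofenac treated livers, against 18966, 30890 and 26653 in saline livers. Slc39a14, which brings zinc and iron into hepatocytes, had 3246, 9482 and 4449.7 in diclofenac treated livers, against 2631, 2966 and 2941 in saline livers. Steap4, a reductase of iron and copper, had 7143, 24947 and 5329 in diclofenac treated livers, against 3870.3, 3367 and 3938 in saline livers, and Hmox1, which breaks down haem, had 675, 1016 and 563 in diclofenac treated livers, against 425, 437 and 427 in saline livers. Scara5, a receptor for ferritin, had 2209.9, 4073 and 778 in diclofenac treated livers, against 499.7, 259 and 685 in saline livers (log2 difference 2.10). Slc41a2, a magnesium transporter, had 3428, 9672 and 2883 in diclofenac treated livers, against 1870.3, 812 and 1653 in saline livers (log2 difference 1.75), while Bmp6, a growth factor that reports iron stores to hepatocytes, was separate and lower at low signals (109, 124 and 129 after diclofenac, against 188, 176 and 142 after saline). Counted over the lists, 3 of 9 genes of metallothioneins and zinc transport, 3 of 17 of iron handling and 2 of 12 of magnesium transport were separate and higher, and 1 of each list was separate and lower.

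Other separate genes that were higher are single genes of varied function. Igfbp1, a binding protein of insulin-like growth factors that the liver makes in fasting and stress, had 6663, 34187 and 4821 in diclofenac treated livers, against 4150.5, 1428 and 2592 in saline livers. Its difference of 2.05 came down to 1.19 without diclofenac liver 2. Nnmt, which methylates nicotinamide, had 10320, 30369 and 9776 in diclofenac treated livers, against 6565, 6354 and 6928 in saline livers, and Slc3a1, a subunit of a cystine transporter, had 2537, 10002 and 3858 in diclofenac treated livers, against 2461, 1859.5 and 2062 in saline livers. Fn1, the gene for fibronectin, had 22939, 37346 and 24183 in diclofenac treated livers, against 14861, 17820 and 19885 in saline livers. Pcx, pyruvate carboxylase, which feeds gluconeogenesis, had 9728, 12141 and 11487 in diclofenac treated livers, against 7929.9, 8642 and 9024 in saline livers, a small but even difference of 0.38. Smad7, an inhibitor of transforming growth factor beta signalling, had 493, 536 and 548 in diclofenac treated livers, against 355, 424 and 259.6 in saline livers. Of the 15 largest separate positive differences, 9 averaged at least 500 in the treated livers, and the others, among them Ankrd2 (98.2, 96.4 and 83.7 after diclofenac, against 13.3, 7.99 and 16.5 after saline), Ly6i (80, 99.2 and 76.4 after diclofenac, against 11, 13.1 and 13.2 after saline), Unc5a (165, 44.3 and 170 after diclofenac, against 20.1, 16.7 and 16.2 after saline), Ang2 (35.2, 88 and 76.3 after diclofenac, against 15.3, 9.46 and 8.71 after saline) and Npy (184, 173 and 83.8 after diclofenac, against 14.8, 20.9 and 76.7 after saline), had low signals. No detection calls were used here, so whether such transcripts were detected was not tested.

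Genes that were lower reached large ratios mostly at low signal, where a gene can likewise enter the test through its saline livers alone. Of the 15 largest separate negative differences, 13 had a mean diclofenac signal under the array median, among them Hkdc1 (21.4, 6.4 and 5.02 after diclofenac, against 100.3, 85.5 and 52.8 after saline) and Foxh1 (12.7, 15.4 and 16.9 after diclofenac, against 126, 87.7 and 84.7 after saline). Sphk1, which makes sphingosine 1-phosphate, had tight groups at these low levels, with 17.3, 16.6 and 17.8 in diclofenac treated livers, against 55.7, 81.6 and 81.3 in saline livers. It was the only gene to pass limma when the trend of variance on signal was left out (log2 difference −2.06, adjusted p = 0.0464). Evx1os (8.98, 23.6 and 5.73 after diclofenac, against 77.9, 62.1 and 54.3 after saline) and the olfactory receptor gene Olfr1264 (4.14, 15.2 and 11.1 after diclofenac, against 21.9, 104 and 64.1 after saline) were of the same kind.

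Well measured genes that were lower included enzymes, receptors and a pseudogene, and diclofenac liver 2 was the lowest liver in each of those given here except Serpina4-ps1. Cyp2c68, a cytochrome P450, had 13712, 10050 and 12675 in diclofenac treated livers, against 20584, 17493 and 19503 in saline livers (log2 difference -0.67, standard error 0.12, adjusted p = 0.201). Hsd3b5, a steroid dehydrogenase typical of male mouse liver, had 10508, 230.2 and 8036 in diclofenac treated livers, against 16520, 13225 and 15618 in saline livers. Its log2 difference of -2.49 was the largest of these genes and became -0.71 without diclofenac liver 2. Afmid, the kynurenine formamidase of tryptophan breakdown, had 1119, 522 and 1727 in diclofenac treated livers, against 2897, 3285 and 2754 in saline livers (-1.57, and -1.10 without that liver). Clec2h, a lectin-like receptor gene, had 1516, 54.6 and 1134 in diclofenac treated livers, against 2348, 2414 and 2420.3 in saline livers, and Sucnr1, the receptor for succinate, had 714, 156 and 1051 in diclofenac treated livers, against 1193, 1857 and 1453 in saline livers. Serpina4-ps1, a transcribed pseudogene of the serpin cluster, had 3248, 2195 and 1343 in diclofenac treated livers, against 7321, 4501 and 6302 in saline livers, and here diclofenac liver 3 was the lowest.

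**Figure D4:**
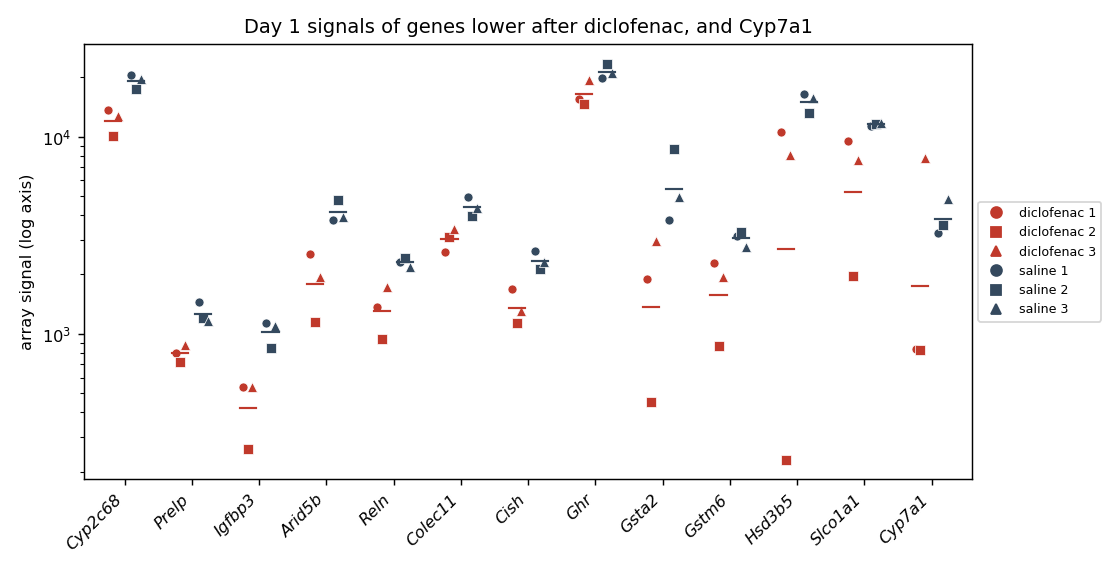
Array signals on a log axis of 12 genes that were lower after diclofenac, with separate groups, and of Cyp7a1, whose groups overlap, in each diclofenac liver (red, left) and each saline liver (dark, right) of day 1. Circles, squares and triangles are livers 1, 2 and 3, and bars are geometric means. Diclofenac liver 2 is far below the rest for Gsta2, Hsd3b5 and Slco1a1, while Prelp and Colec11 are lower in all 3 treated livers alike.

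Enzymes that conjugate drugs were lower as a group. Of 27 tested, 8 were separate and lower and 1 separate and higher, and the median difference was −0.42. The medians of single livers were −0.076, −1.003 and −0.130, and without diclofenac liver 2 the median was −0.14. Gsta2, a glutathione transferase of detoxification, had 1904, 452 and 2943 in diclofenac treated livers, against 3780.3, 8687 and 4914 in saline livers (log2 difference -2.00, and -1.20 without that liver). Gstm6, another glutathione transferase, had 2279.7, 867 and 1936 in diclofenac treated livers, against 3147, 3281 and 2768 in saline livers. Ugt2b1, a glucuronosyltransferase, had 29468, 8814 and 22921 in diclofenac treated livers, against 32272, 29793 and 34170 in saline livers. Gstt3 was lower in all 3 livers more evenly, with 999.7, 821 and 1629 in diclofenac treated livers, against 2051, 2463 and 1847 in saline livers. Differences were smaller for enzymes of the oxidation step. Of 25 cytochromes P450 of drug metabolism 5 were separate and lower and 1 separate and higher, and the median was −0.10. Cyp1a2, which oxidises caffeine and aromatic amines, had 20978, 12682 and 18484 in diclofenac treated livers, against 22929, 23150 and 23299 in saline livers, and Cyp2c54 had 16101, 12546 and 20745 in diclofenac treated livers, against 20928, 25891 and 24561 in saline livers. Cyp26a1, which degrades retinoic acid, had 2096, 772 and 1042 in diclofenac treated livers, against 3046, 3589.6 and 2127 in saline livers. Cyp3a13 was the gene in the opposite direction, with 11841, 22691 and 12802 in diclofenac treated livers, against 7682, 8094 and 10055 in saline livers (log2 difference 0.82), and the abundant Cyp2c29 (0.04) was near 0. Cytochrome and transferase genes have close relatives in the mouse genome, and probes can be shared among them. Of 9 carboxylesterases, which cleave ester drugs, 2 were separate and lower, and of 18 drug and bile salt transporters 3 were separate and lower and 1 higher. Ces1f had 13706, 3628 and 16933 in diclofenac treated livers, against 18165, 19041 and 20609 in saline livers, and Slco1a1, an organic anion carrier, had 9444, 1966 and 7609.8 in diclofenac treated livers, against 11299, 11607 and 11782 in saline livers. Ephx1, the microsomal epoxide hydrolase, had 12981, 6803 and 11738 in diclofenac treated livers, against 14868, 17098 and 14690 in saline livers, and Gclc, the rate-limiting subunit of glutathione synthesis, had 6794, 2764 and 6036 in diclofenac treated livers, against 8239, 8354 and 7532 in saline livers.

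Genes of stellate cells and of the fibrillar matrix were lower in all 3 treated livers. Stellate cells store vitamin A and make the matrix between hepatocytes and sinusoids. Of 10 stellate cell genes tested, 4 were separate and lower and 0 higher, with a median of −0.56 and single-liver medians of −0.31, −0.61 and −0.37. Without diclofenac liver 2 the median was −0.35. Their summed signal was 7839.6 to 8688 in diclofenac treated livers and 10454 to 12794 in saline livers. Reln, the secreted glycoprotein reelin, had 1369.5, 938 and 1722 in diclofenac treated livers, against 2309.8, 2419 and 2179 in saline livers (log2 difference -0.82). Colec11, a collectin of innate defence, had 2593, 3100.1 and 3398 in diclofenac treated livers, against 4916, 3945 and 4351 in saline livers, and Pdgfrb, the receptor for platelet-derived growth factor, had 293, 295 and 376 in diclofenac treated livers, against 555, 395 and 516 in saline livers. The defining genes Lrat (-0.68) and Des (1.11) had overlapping groups and opposite signs, and Des was at or near the array median. Of 21 genes of the matrix and its proteases 6 were separate and lower and 2 higher. Their median was −0.25, and it was −0.18 without diclofenac liver 2, −0.10 without saline liver 1 and −0.40 without saline liver 3. Col3a1, a fibrillar collagen, had 960.1, 1260 and 1478 in diclofenac treated livers, against 3398, 1688 and 2266 in saline livers, and Dcn, the proteoglycan decorin that binds collagen fibrils, had 5496, 7317 and 6575 in diclofenac treated livers, against 10011, 8849.7 and 8055 in saline livers (log2 difference -0.48). Prelp, another small leucine-rich proteoglycan, had 798, 717 and 879 in diclofenac treated livers, against 1455, 1197 and 1167 in saline livers (log2 difference -0.67, adjusted p = 0.206). Without diclofenac liver 2 the log2 differences were -0.98 for Col3a1 and -0.57 for Dcn, slightly larger in size, and -0.60 for Prelp and -0.58 for Reln, which were smaller. The 2 matrix genes that were separate and higher were Fn1 and Cd44, the receptor for hyaluronan (1013, 987 and 675 after diclofenac, against 672, 425 and 550.4 after saline).

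In the axis of growth hormone, RNA of the receptor and of several of its targets was lower. Protein was not measured here, and the study reported increased staining for the receptor protein after the single treatment. Ghr, the growth hormone receptor, had 15559, 14689 and 19288 in diclofenac treated livers, against 19813, 23394 and 21028 in saline livers (log2 difference -0.38). Cish and Socs2, feedback inhibitors that growth hormone induces through STAT5, had 1687, 1131 and 1309 in diclofenac treated livers, against 2638, 2121 and 2302 in saline livers, and 1979, 2333 and 3412 in diclofenac treated livers, against 3874, 3431 and 4694 in saline livers. Igfbp3, the main carrier of insulin-like growth factors in blood, had 536, 262 and 539 in diclofenac treated livers, against 1137, 849.7 and 1091 in saline livers (log2 difference -1.27), and Igfals, which completes that carrier complex, had 1003, 553 and 1044 in diclofenac treated livers, against 1504, 1557 and 1502 in saline livers. Over the 12 genes of the list, which holds all of these but Igfals, 4 were separate and lower and 1, Igfbp1, higher. The median was −0.24, or −0.27 without diclofenac liver 2 and −0.14 without saline liver 1. The single-liver medians of −0.32, −0.28 and −0.17 were close, although diclofenac liver 2 stood apart for Igfbp3 and Igfals. Of 9 male-biased genes, which depend on the pulses of growth hormone in males, 2 were separate and lower. Their single-liver medians of 0.17, −2.56 and −0.60 differed in sign, and without diclofenac liver 2 the median was −0.08, against −0.96 with all 3 livers. Elovl3, which lengthens fatty acids, shows this spread, with 19925, 1392 and 5923 in diclofenac treated livers, against 11626, 11574 and 12981 in saline livers.

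Of 17 transcription factors of hepatocytes, 4 were separate and lower and 0 higher, with a median of −0.20. The single-liver medians were −0.20, −0.27 and 0.03, and without diclofenac liver 2 the median was −0.09. Arid5b, a chromatin factor, had 2529.9, 1143 and 1947 in diclofenac treated livers, against 3757, 4784 and 3921 in saline livers (log2 difference -1.22, and -0.90 without diclofenac liver 2). The pioneer factors Foxa1 and Foxa2 had differences of -0.86 and -0.60. Hnf4a overlapped at 15589, 19623 and 12814 in diclofenac treated livers, against 12728, 13891 and 12522 in saline livers, while Hnf4aos, the transcript from its other strand, had 312, 338 and 358 in diclofenac treated livers, against 567, 571 and 561 in saline livers, tightly grouped on both sides (log2 difference -0.76). Of 35 genes of the respiratory chain and ATP synthase, all but 3 had a difference below 0, 7 were separate and lower and 0 higher, but the median was only −0.15 and −0.07 without diclofenac liver 2. Ndufb10, of complex I, had 6155, 5039.8 and 6629.9 in diclofenac treated livers, against 7141, 8312 and 7756 in saline livers, and Sdhd, of complex II, had 6456, 6421 and 6409 in diclofenac treated livers, against 6978, 8379.7 and 7762 in saline livers. Of 19 immediate early genes and Sprouty-type inhibitors 4 were separate and lower and 0 higher. Dusp6, a phosphatase of ERK, had 1525, 1644 and 2053 in diclofenac treated livers, against 2219, 2191 and 2472 in saline livers, and the stress kinase gene Plk3 of the p53 list had 503, 700.3 and 658 in diclofenac treated livers, against 1006, 1022 and 989.6 in saline livers (log2 difference -0.71).

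**Figure D5:**
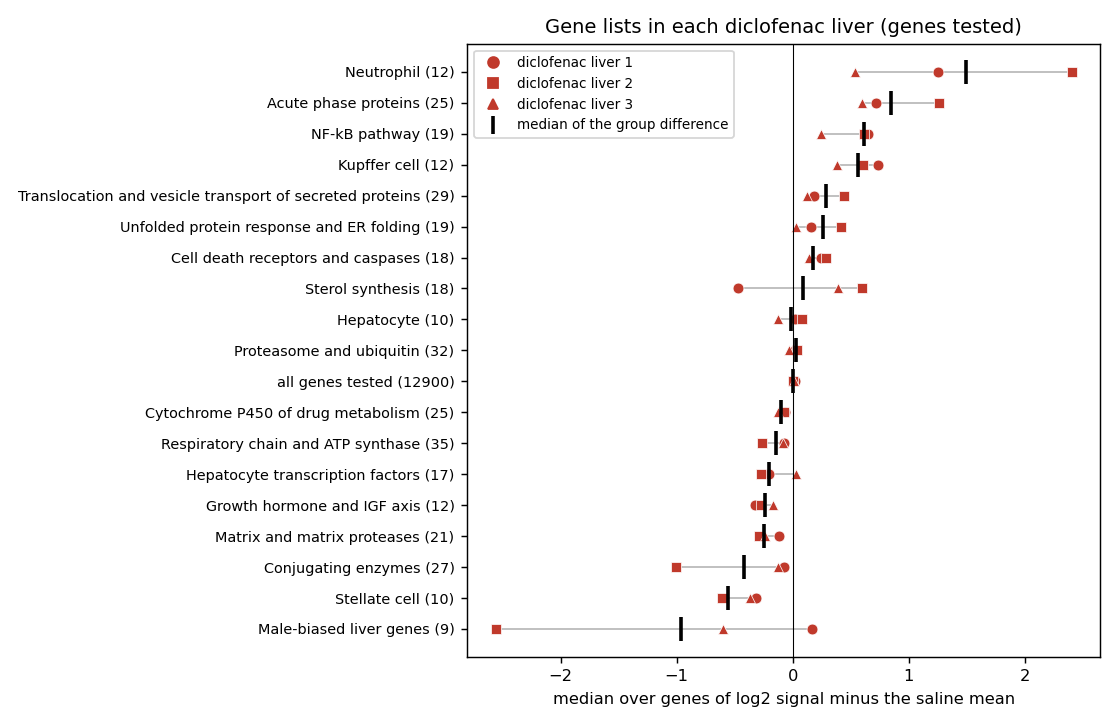
For each gene list the median over its tested genes (number in parentheses) of log2 signal minus the saline mean, in diclofenac livers 1 (circle), 2 (square) and 3 (triangle), with a bar at the median of the group difference. The 3 livers lie on the same side of 0 for the acute phase, Kupffer cell, secretory, stellate cell and growth hormone lists, and diclofenac liver 2 is set apart for neutrophil genes, conjugating enzymes and male-biased genes, while all genes together lie at 0.

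Several other functions differed little or not in a common direction. Exceptions by direction were the cell cycle, with 17 of 19 genes above 0, and leukocyte adhesion, with 10 of 11. Their medians were 0.39 and 0.25, or 0.22 and 0.16 without diclofenac liver 2. Single-liver medians were 0.63, 0.97 and 0.05 for the cell cycle and 0.49, 0.53 and 0.16 for adhesion. Only 1 and 2 of these genes were separate and higher, and 0 were separate and lower. The 10 hepatocyte markers had a median of −0.02, the 32 proteasome genes 0.03, and the 10 genes of sinusoidal endothelium 0.06. Lists of T cells, B cells, bile duct cells and pancreas had at most 1 separate gene each, and most of their members were at low signal. Of 18 genes of sterol synthesis 0 were separate, and the treated livers lay on both sides of saline, with medians of −0.47, 0.60 and 0.39. Cyp7a1, the rate-limiting enzyme of bile acid synthesis, had 838, 827 and 7753 in diclofenac treated livers, against 3255, 3558 and 4845 in saline livers. Diclofenac livers 1 and 2 were well below every saline liver and diclofenac liver 3 was above them all. Without diclofenac liver 3 the log2 difference was −2.20 with an adjusted p of 0.00485 in limma. Leaving out the liver on the other side widens the difference by construction, and with all livers the groups overlapped. In all, 17 genes passed without diclofenac liver 3, 9 higher and 8 lower, Serpina3n (2.12), Dnajc12 (1.87), Fcgr4 (1.25) and Reln (−1.02) among them. Cyp7b1, of the alternative bile acid route, showed a different order, with 29442, 3915 and 10071 in diclofenac treated livers, against 17509, 15962 and 16404 in saline livers. The glucocorticoid receptor gene Nr3c1 (-0.14), the phosphatase gene Ptpn2 (0.10) and Cyp2b9 (0.66) overlapped between the groups. The leptin receptor gene Lepr had 157, 673 and 251 in diclofenac treated livers, against 111, 194 and 134 in saline livers, also overlapping. Cyp2a4, Cyp2a5, Cyp2c40, Il6 and Vdr, which are of interest in this study, had no probe set that entered the test. Ptgs2, the inducible cyclooxygenase that diclofenac blocks, was under the median of each of the 6 arrays and was not tested. The breakdown enzyme of prostaglandins, Hpgd, had 6308, 4017 and 8071 in diclofenac treated livers, against 9161, 8970.2 and 8527 in saline livers and was separate and lower.

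Mice treated for 3 days, with their own saline group, give the same measure in other animals. Over all genes 10.7% were separate and higher and 9.26% separate and lower on day 3. Of the 25 well measured genes with the largest separate positive differences on day 1, 24 were above 0 on day 3 and 21 separate and higher, whereas of the 25 with the largest separate negative differences all 25 were below 0 but 8 were separate and lower. Of the 15 largest separate negative differences at any signal, 2 averaged at least 500 in the saline livers. Among these 15, 12 were below 0 on day 3 and 3 separate and lower. Of the 15 largest separate positive differences at any signal, 12 were above 0 on day 3 and 10 separate and higher. The difference between the day 3 and day 1 effects passed limma for 0 genes (684 at an unadjusted p under 0.05, smallest adjusted p 0.275). The signals of the secretory route were near saline on day 3, with a median of −0.01 over the 29 genes and log2 differences of -0.06 for Sec61b and -0.07 for Cope. Those of the unfolded protein response had a median of −0.06 on day 3. Igfbp1 had -0.53 on day 3, Slc25a22 0.13 and Gsta2 -0.03, against 2.05, 0.57 and -2.00 on day 1. For none of these did the difference between days pass the test. Without diclofenac liver 3 of day 1 the difference between days passed limma for 2 genes. These were Cyp7a1 (3.41, adjusted p = 0.00103) and Slc25a33, a mitochondrial carrier of pyrimidine nucleotides (−1.68, adjusted p = 0.00404). In both genes that liver lay apart from the other 2 treated livers, so leaving it out widens the day 1 difference by construction. Slc25a33 had signals of 2626, 2594 and 1673 in diclofenac treated livers, against 1712, 1481 and 1571 in saline livers on day 1.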

How the data were processed

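Liver RNA was hybridised to Affymetrix Mouse 430 2.0 arrays. MAS5 and a global median normalization, run by the authors in GenPlex, gave the deposited linear signal intensities of 45101 probe sets, which share a trimmed mean of 500.0 per array after 2% is left out at either end. All deposited intensities are above 0, and no detection calls were used here. The number of arrays limits the precision.

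Signals were taken to log2. Of the probe sets, 34958 have 1 gene symbol, 932 several and 9211 none. The brightest single-gene probe set was kept for each of 18194 genes, 18033 of which are in RefSeq. Genes above the array's own median on at least 3 of the 12 arrays of days 1 and 3 were tested (12900), since the day 3 groups help to estimate the spread. A single group of 3 arrays is therefore enough to bring a gene into the test. The contrast of day 1 was fitted with limma 3.58.1 (R 4.3.3, trend of variance), two-sided, with Benjamini-Hochberg adjustment over all genes. Self-tests on simulated data used the same number of genes. Nothing states that arrays of a group come from separate litters or days, so p-values measure the spread between these mice. Mice of equal replicate number were not treated as pairs, since nothing states that they were. Of 6 pairs of equal number, 0 had residuals that correlated above 0.1, which cannot exclude a pairing.

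The genes and lists were chosen with earlier results of these data known. Named genes are the 15 largest separate differences each way at an unadjusted p under 0.05, the 12 smallest p-values, up to 4 genes per list, genes the study names and 6 genes with 1 diclofenac liver in the saline range. Further list members, and the ranking among the 6480 genes whose higher group averages at least 500, were chosen after the values were seen. Promoters are from RefSeq. Alternatives changed the filter, scaling, probe set rule, arrays in the fit, weights, variance model, a block for replicate number, the test and each single array. Further software was scipy 1.17.1, numpy 2.4.6, pandas 2.3.3 and Python 3.11.15.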

Additional observations from a re-analysis of the deposited data

Results flagged for a closer look

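In 3 of the genes named above every diclofenac treated liver was on 1 side of its saline group on day 1 and on the other side on day 3. Smad7 had a log2 difference of 0.63 on day 1, with all 3 treated livers higher, and of -0.55 on day 3, with all 3 lower. The test of the difference between days gave -1.18 (adjusted p = 0.882, limma). Evx1os had −2.59 on day 1 and 1.36 on day 3, and Olfr1264 had −2.57 on day 1 and 1.16 on day 3, with adjusted p-values of 0.882 for the difference between days in both, and both were under the array median in the treated livers of day 1. Over all 12900 genes, 31 were separate and higher on day 1 but lower on day 3, and 36 the reverse. Groups of 3 livers are too small for a formal test of single outlying livers.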

How the results depend on the processing

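The count of 0 genes past the adjusted test held in the alternatives run except these. It was 1 gene without the trend of variance and 0 to 17 genes when single arrays were left out, namely 5 without saline replicate 3 and 17 without diclofenac replicate 3 of day 1. It was 248 for differences of 1.5-fold or more with an unadjusted p under 0.01. The methods' t-test gave 189 at an unadjusted p under 0.05 and above 1.5-fold, and 0 after Benjamini-Hochberg adjustment. A replicate block gave 0 as well (smallest adjusted p 0.337), and it changed no other call. The count at an unadjusted p under 0.05, 1664 in all, was 2621 with every probe set on its own, 1028 on the day 1 arrays alone, 1077 with all 22 arrays, 541 with the methods' t-test, 1070 without saline replicate 2 and 913 without diclofenac replicate 2. Separate genes numbered 1669 higher and 1716 lower with every probe set on its own, and 1533 to 2043 higher and 1473 to 1991 lower with 1 array of day 1 left out, where fewer livers make separation easier by construction. The count of genes at least 2-fold outside saline in diclofenac livers 1, 2 and 3 was 2659, 3802 and 2528 with no filter, 336, 1052 and 241 with a filter at the 60th percentile, 107, 655 and 92 with the median signal added before log2, and 1499, 3018 and 1308 with every probe set on its own. Diclofenac liver 2 had the highest count in each. The effect of day 3 minus that of day 1 passed for 0 to 2 genes when single arrays were left out.

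For the 14 gene lists that were followed through the alternatives, the median kept its sign in every one. Other lists were not followed. Among these, medians near 0 changed sign without diclofenac liver 2 for proteasome genes (−0.01), sinusoidal endothelium (−0.004) and sterol synthesis (−0.08). The median of the NF-kB list was 0.30 with the median signal added, 0.36 with the mean of all probe sets or every probe set on its own, and 0.37 (without diclofenac replicate 2) to 0.70 with 1 array left out. That of stellate cell genes was −0.40 with the median signal added, −0.39 with every probe set on its own and −0.67 to −0.35 (without diclofenac replicate 2) with 1 array left out. The matrix list had −0.15 with the mean of all probe sets and −0.40 to −0.10 with 1 array left out, the growth hormone list −0.33 with the mean of all probe sets, −0.36 with every probe set on its own and −0.27 to −0.14 (without saline replicate 1), and the cell death list 0.11 to 0.26. Of 143 genes named, 135 kept their direction in every alternative. Some alternatives could not change it, namely those that left out a day 3 array and the replicate block. With every probe set on its own only the probe set of the main fit was compared, so that one could not change it either. The genes whose direction changed follow. Cyp2c29 was −0.0232 under quantile normalization, Il1rap 0.0823 with the mean of its probe sets and Ptpn2 −0.00717 with array weights. With 1 array left out the ranges were −0.0350 to 1.58 for Cyp2b9, −1.40 to 0.0518 for Cyp7b1, −1.34 to 0.37 for Ltf, −0.44 to 1.36 for Ngp, −0.25 to 0.0204 for Nr3c1 and −0.0945 to 0.26 for Ptpn2. The causes were not tested. Signals near the array median limit the low genes, and 3 livers per group limit all of them.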

Other observations

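The counts of further lists are given beside 8.23% separate and higher and 8.01% separate and lower over all genes. Of 18 genes of coagulation and fibrinolysis 5 were separate and higher and 2 separate and lower. Pros1, which encodes the anticoagulant protein S, had 2491, 4019 and 2253 in diclofenac treated livers, against 1908, 1531 and 1913 in saline livers, and F10, coagulation factor X, had a log2 difference of 0.31. Proc, which encodes protein C, had 13945, 14277 and 15074 in diclofenac treated livers, against 15339, 16755 and 17579 in saline livers, a small difference in the other direction (-0.20). Of 16 complement genes 2 were separate and higher, C4bp, a regulator of the classical pathway (20854, 39955 and 22046 after diclofenac, against 18608, 16893 and 18830 after saline), and Mbl1, a mannose-binding lectin (13311, 13929 and 13370 after diclofenac, against 11085, 10062 and 11730 after saline). Of 24 genes of the interferon response and antigen processing 4 were separate and higher and 0 lower, and they include the membrane proteins Ifitm2 (19361, 29587 and 19040 after diclofenac, against 13202, 12766 and 15114 after saline) and Ly6e (8773, 8998 and 6698 after diclofenac, against 6299, 3987 and 5143 after saline).

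Of 18 lysosomal proteases and hydrolases 3 were separate and higher and 0 lower, and the median log2 difference of the list was 0.16. Ctss, a protease of antigen presenting cells, had 8414, 6549 and 5785 in diclofenac treated livers, against 4941, 3455 and 5122 in saline livers, and Ctsa, a lysosomal carboxypeptidase, had 4291, 5033 and 4375 in diclofenac treated livers, against 3816, 3711 and 3839.7 in saline livers. Of 22 genes of ribosome biogenesis and translation initiation 4 were separate and higher and 1 lower, and Eif1a, a factor of start codon selection, had 2635, 6362 and 2129 in diclofenac treated livers, against 1784, 1895 and 1854 in saline livers. Of 19 genes of sphingolipid synthesis 2 were separate and higher and 4 lower. Cers6, a ceramide synthase, had 813, 2009 and 648 in diclofenac treated livers, against 461, 603 and 389 in saline livers, and Sgms2, which turns ceramide into sphingomyelin, had 3972, 1211 and 4303 in diclofenac treated livers, against 4748, 5210.5 and 5008 in saline livers. Of the 12900 genes, 8227 had a larger SD of log2 signals among the diclofenac livers than among the saline livers.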
